A study of Mus musculus with 2 samples.

Results

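The 10 genes described here encode proteins of the outer dense fibres and fibrous sheath of the sperm tail, or proteins tied to them: Odf1, Odf2, Odf3, Odf4, Cabyr, Ropn1, Ropn1l, Tcp11, Oaz3 and Gk2. They were chosen by symbol, and all 10 were among the 23234 genes measured. RNA-seq was made from round spermatids of C57BL/6 mice, the haploid cells that meiosis leaves in the testis. The study compared 1 library from wild-type mice with 1 library from mice deficient for both Epc1 and Epc2, whose genotype label is Epc-dKO. The proteins EPC1 and EPC2 belong to NuA4/TIP60, a complex that acetylates histones. The sources used here give neither the alleles nor a Cre driver, the age of the mice or the number of animals behind a library.

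Outer dense fibres are stiff, cysteine-rich cables that run along the microtubule doublets of the axoneme through the midpiece and principal piece of the tail. The fibrous sheath surrounds them in the principal piece and is built on AKAP scaffold proteins, which hold protein kinase A, ropporins, CABYR and glycolytic enzymes near the axoneme. Transcription of many tail genes starts in round spermatids, while the structures themselves are assembled later, as spermatids elongate. Transcript levels in round spermatids therefore describe mRNA supply and not the finished tail.

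The values are FPKM, fragment counts per length of transcript, scaled by the size of the library, so levels can be set against each other between genes within a library. Read depth is unknown, and FPKM summed to 193611 in wild type and 198081 in the other library. Since each genotype is 1 library, the spread between replicates is unknown and the differences carry no p-value. The FPKM of Epc1 was 11.4 in wild type and 13.6 in the other library, and that of Epc2 was 7.12 and 10.5. Neither targeted gene was lower, and gene-level values include any exons outside a deleted part, so the second library is called by its label throughout. The round spermatid identity of both libraries was checked on 11 marker genes, all with a mean FPKM of 1 or more. Their summed FPKM was 834 and 809. The 13 spermatocyte markers summed to 304 and 273, the 13 spermatogonial markers to 42.6 and 19.3, and the 7 Leydig cell markers to 31.0 and 24.1. Such sums do not measure the share of cells of each type. The 8 genes listed as markers of elongating spermatids, the next stage, summed to 209 and 1037. In the library labelled Epc-dKO this was above the round spermatid markers. Whether these transcripts came from cells of the next stage was not tested. The 9 Sertoli cell markers matched summed to 12.7 and 7.97 and the 5 peritubular markers to 11.4 and 6.54. The 6 markers of blood and endothelium summed to 3.85 and 2.84. Of these, 2, Hbb-b1 and Hba-a1, were listed at 0 in both libraries, and Vwf passed the minimum at 2.60 and 2.31.

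Odf1 encodes a major fibre protein known for Cys-Gly-Pro repeats near its C terminus. Its coding sequence is shown over these repeats because Odf1 had the largest difference of the 10 genes and its reads over this stretch come from a tandem repeat. In GENCODE M21 the printed stretch lies in exon 2 of the 2 exons, at chr15:38226479-38226544 on the plus strand of GRCm38. It spans bases 622 to 687 of a coding sequence of 744 bases. Capitals mark 6 adjoining, in-frame copies of a 9-base unit that encodes Cys-Gly-Pro.

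Odf1: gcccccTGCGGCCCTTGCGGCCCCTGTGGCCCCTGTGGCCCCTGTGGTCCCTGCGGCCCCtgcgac

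Ropn1 and Ropn1l are paralogs, and their sequences bear on whether their FPKM can be read separately. Over 609 aligned coding bases they were 58.8% identical, and 0 of 587 windows of 50 bases of Ropn1 occurred unchanged in Ropn1l. Their longest exact run, 14 bases near the start of both coding sequences, is shown in capitals with its flanks. The printed stretches lie in exon 2 of Ropn1 at chr16:34666714-34666757 (plus strand) and in exon 1 of Ropn1l at chr15:31453467-31453510 (minus strand), both in GRCm38.

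Ropn1: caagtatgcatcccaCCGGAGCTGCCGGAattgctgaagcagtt
Ropn1l: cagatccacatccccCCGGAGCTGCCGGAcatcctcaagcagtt

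All 10 genes were detected well above the minimum used, a mean FPKM of 1, and none differed by 2-fold between the libraries. The difference is given as a log2 ratio, the log2 of FPKM + 1 in the library labelled Epc-dKO divided by FPKM + 1 in wild type, which understates the change of low genes. A gene was called higher or lower at 2-fold on this scale. By that rule 0 of the 10 were higher and 0 were lower. Of all 10438 genes that passed the minimum, 2.75% were at least 2-fold higher and 1.88% at least 2-fold lower, so 0 of 10 is close to this background. Past 1.5-fold, Odf1 was higher and Odf3 was lower, 1 gene of 10 each way, beside 8.02% and 10.8% of all genes. The Odf3 ratio lies near this limit and came inside it when the libraries were rescaled to a median ratio of 1 (-0.55) or to their upper quartiles (-0.56). The ratios ran from -0.60 to 0.69 with a median of 0.15, beside a median of -0.05 over all 10438 genes. Of the 10, 6 lay above 0 and 4 below. The middle 50% of all genes ran from -0.34 to 0.24, a range that held 4 of the 10, with 3 above it and 3 below it. In bulk samples such as these, fewer cells of a type and less RNA per cell cannot be told apart.

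**Figure D1:**
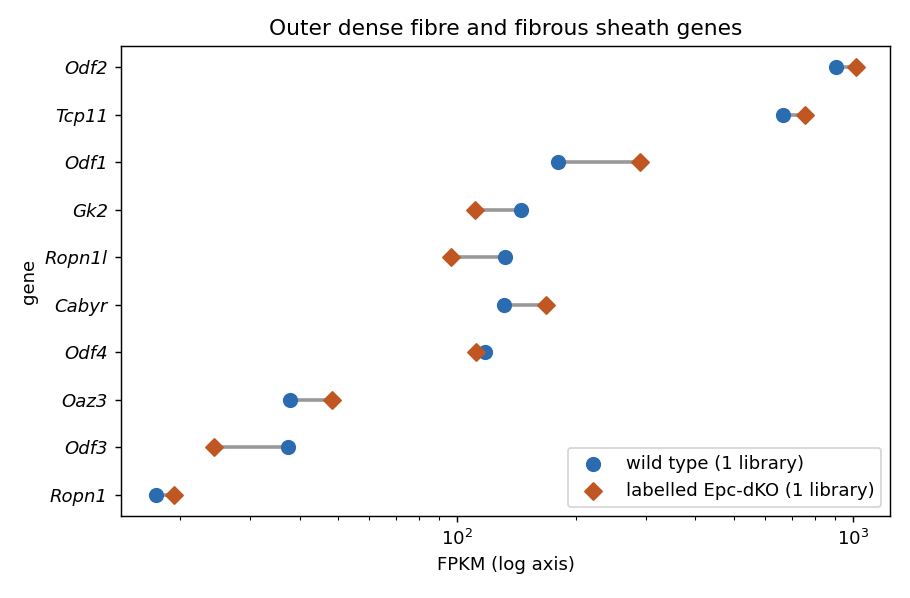
FPKM (log axis) of each of the 10 genes in the wild-type library (circles) and in the library labelled Epc-dKO (diamonds), 1 library each, ordered by the wild-type value. Odf2, at 904 and 1014, and Tcp11, at 665 and 755, stand apart from the rest in both libraries, and Ropn1, at 17.3 and 19.2, is the lowest in both.

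Levels spread widely within the set and kept much of their order. Odf2 was 52.2 times as high as Ropn1 in wild type and 52.7 times as high in the library labelled Epc-dKO. Odf2, Tcp11 and Odf1 held the first 3 places in both libraries, in that order, and Oaz3, Odf3 and Ropn1 held the last 3. Only the 4 genes between them changed places. In the wild-type library the order was Gk2, Ropn1l, Cabyr and Odf4, within 1.23-fold of each other, and in the library labelled Epc-dKO it was Cabyr, Odf4, Gk2 and Ropn1l, within 1.74-fold. Neighbours in these orders cannot be separated from library-to-library spread, which was not measured.

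Together the 10 genes took 1.22% of the summed FPKM of the wild-type library and 1.33% of that of the library labelled Epc-dKO. Their own sum was 2367 and 2639, a difference of 272. The 3 most abundant genes, Odf2, Tcp11 and Odf1, were higher by 311 in all, more than the whole difference, and the other 7 were lower on balance. Odf2 and Tcp11 alone made up 66.3% and 67.1% of the sum.

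Among the outer dense fibre genes, Odf1 stood higher in the library labelled Epc-dKO, Odf2 was nearly level, Odf4 was level and Odf3 stood lower. Odf1 stood at an FPKM of 179.7 in wild type and 290.1 in the library labelled Epc-dKO (log2 ratio 0.69). This was 1.61 times the wild-type value, and it moved Odf1 from rank 125 to rank 56 of all genes. Of all genes passing the minimum, 94.2% had a ratio at or below that of Odf1.

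Odf2 encodes a fibre protein that is also made, as cenexin, at the appendages of the mother centriole. It was among the most abundant transcripts of both libraries, at rank 4 with an FPKM of 904 in wild type and at rank 3 with 1014 in the library labelled Epc-dKO. The log2 ratio was 0.17. GENCODE M21 gives Odf2 25 transcripts, the longest coding one of 3959 bases in 22 exons, and a gene-level FPKM does not separate fibre from centriole isoforms.

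Odf3, also known as Shippo1, encodes a filament-associated protein of the tail. Its FPKM was 37.4 in wild type and 24.3 in the library labelled Epc-dKO (log2 ratio -0.60), and this ratio was the lowest of the set. Of all genes passing the minimum, 10.3% had a ratio at or below it. Its paralog Odf3l1 had 61.4 and 78.3, a log2 ratio of 0.35. Odf3l1 was therefore 1.64 times as high as Odf3 in wild type and 3.22 times as high in the library labelled Epc-dKO, while their sum was 98.7 and 102.6. Aligned coding bases of the pair were 54.8% identical, with a longest exact run of 10 bases. In GENCODE M21, Odf3 overlaps the predicted gene Gm45785 on the opposite strand, and Ropn1l and Tcp11 overlap pseudogenes on their own strand, none of which was used here.

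Odf4, also called Oppo1, encodes a membrane-associated tail protein. Its FPKM was 117.8 in wild type and 111.7 in the library labelled Epc-dKO (log2 ratio -0.08). This ratio was the closest to 0 of the 10. The fibre genes were thus spread on either side of 0. The ratio of Odf2 to Odf1 within a library, which no scaling of the library can change, was 5.03 in wild type and 3.50 in the library labelled Epc-dKO. For Odf1 over Odf3 the same quantity was 4.81 and 11.9.

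**Figure D2:**
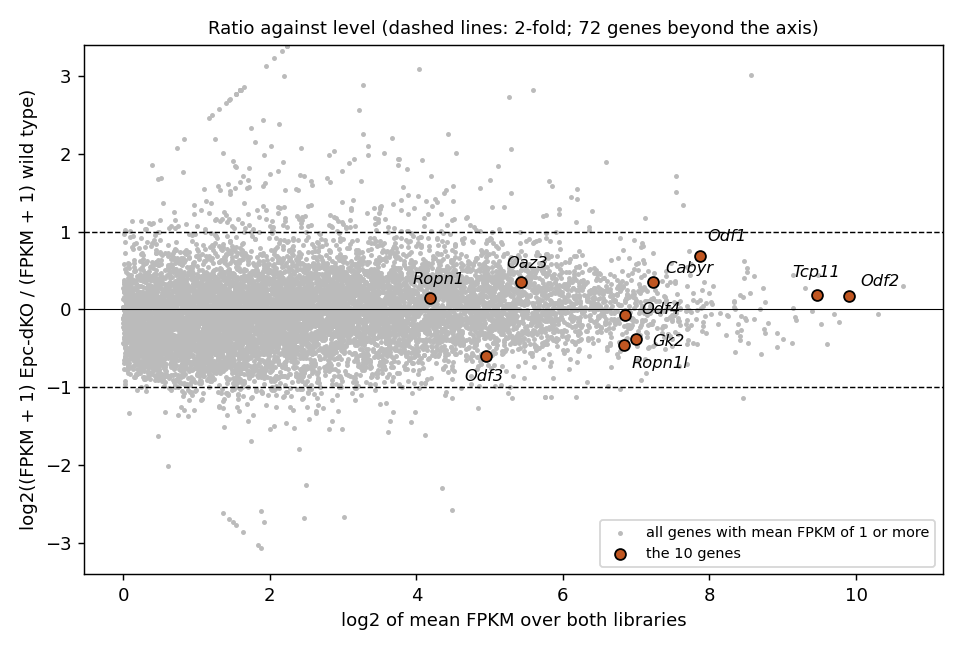
Log2 ratio of the library labelled Epc-dKO over the wild-type library (vertical axis, FPKM + 1) against the log2 of the mean FPKM (horizontal axis) for the 10438 genes that passed the minimum (grey) and the 10 genes (orange), with dashed lines at 2-fold. 72 grey genes lie beyond the vertical axis; all 10 genes lie between the dashed lines, with Odf1 highest at 0.69 and Odf3 lowest at -0.60.

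TCP11 is a testis protein reported to bind ODF1, and loss of Tcp11 impairs sperm motility. Tcp11 stood at an FPKM of 665 in wild type, rank 9 of all genes, and 755 in the library labelled Epc-dKO, rank 8. Its log2 ratio was 0.18, close to that of Odf2, and Odf2 was 1.36 times as high as Tcp11 in wild type and 1.34 times as high in the other. The ratio of Tcp11 to its binding partner Odf1 was 3.70 and 2.60. Tcp11 and Odf2 belong to the most abundant class of transcripts. Of 346 genes at a mean FPKM of at least 100, 2.6% were at least 2-fold higher and 1.45% at least 2-fold lower, beside 0 of the 7 of the 10 genes in that class.

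The fibrous sheath genes also went both ways. Cabyr encodes a calcium-binding sheath protein that is phosphorylated on tyrosine during capacitation. It stood at an FPKM of 131.2 in wild type and 168.0 in the library labelled Epc-dKO (log2 ratio 0.35). Ropn1l, also known as ASP, encodes a ropporin-like protein that binds AKAP scaffolds through a domain resembling the docking domain of protein kinase A. Its FPKM was 132.5 and 96.3, a log2 ratio of -0.46. Cabyr and Ropn1l were level in the wild-type library, at a ratio of 0.99, and Cabyr was 1.74 times as high as Ropn1l in the library labelled Epc-dKO.

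Ropn1 encodes ropporin, which shares that docking domain. Its FPKM was 17.3 in wild type and 19.2 in the library labelled Epc-dKO (log2 ratio 0.14). Ropn1l was 7.65 times as high as Ropn1 in wild type and 5.01 times as high in the library labelled Epc-dKO. As the printed run shows, the pair shares only short exact stretches. Ropn1l was the more abundant ropporin transcript of both libraries.

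Oaz3 encodes antizyme 3, a spermatid form of the proteins that bind ornithine decarboxylase and limit polyamine synthesis, and its loss in mice separates sperm heads from tails. Oaz3 stood at an FPKM of 37.7 in wild type and 48.4 in the library labelled Epc-dKO (log2 ratio 0.35). Odc1, which encodes ornithine decarboxylase, had 85.7 and 106.2, a log2 ratio of 0.31 beside the 0.35 of Oaz3. Adc, whose current symbol is Azin2 and which encodes an antizyme inhibitor, rose from 7.10 to 20.5, a log2 ratio of 1.41. The ratio of Adc to Oaz3 was 0.188 in wild type and 0.425 in the other. In GENCODE M21, Oaz3 overlaps Tdrkh (FPKM 4.09 and 3.67) and Mrpl9 (2.61 and 1.96) on the opposite strand. The strand setting of the counting is not given in the sources used here, so reads of the 3 genes may not be separated, although both neighbours were far below Oaz3.

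Gk2 encodes a testis glycerol kinase on the mitochondria of the midpiece and is needed for an orderly mitochondrial sheath; it is a single-exon gene. It stood at an FPKM of 144.8 in wild type and 111.2 in the library labelled Epc-dKO (log2 ratio -0.38). Its paralog Gykl1 had 115.8 and 131.2, a log2 ratio of 0.18. Gk2 was 1.25 times as high as Gykl1 in wild type and 0.847 times as high in the library labelled Epc-dKO. The order of the pair was thus reversed, which cannot be separated from unmeasured library-to-library spread, while their sum was 260.6 and 242.5. Their coding sequences were 77.2% identical over 1647 aligned bases, with a longest exact run of 33 bases and 0 of 1613 windows of 50 bases in common. Read length is not given in the sources used here, so a part of their reads may have been shared.

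**Figure D3:**
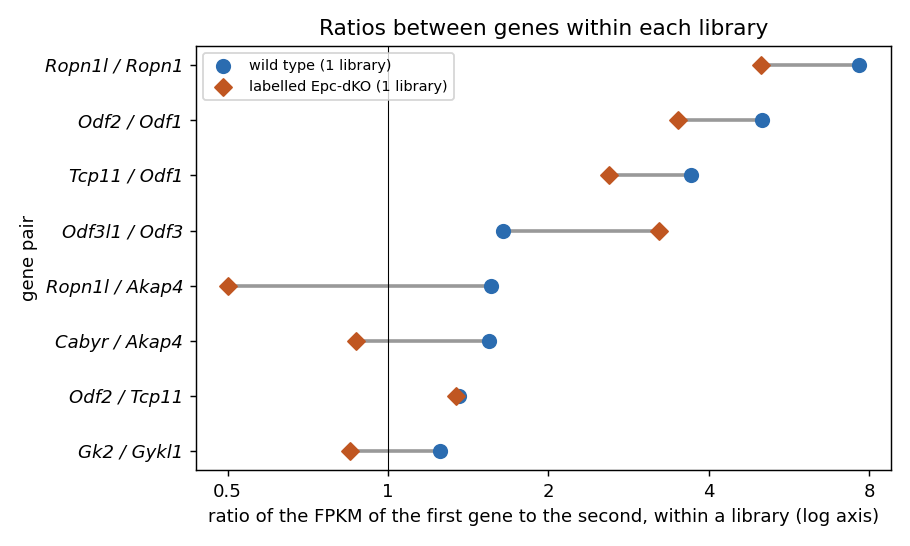
Ratio of the FPKM of 1 gene to another within each library (log axis), for the wild-type library (circles) and the library labelled Epc-dKO (diamonds), 1 library each. Odf2 over Tcp11 barely moves (1.36 and 1.34), Gk2 over Gykl1 crosses 1 (1.25 and 0.847), and Ropn1l over Akap4 has the widest gap (1.56 and 0.50).

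Related genes, not all of the same structures, were taken from 5 lists. These held paralogs of the 10 genes, fibre and head-tail coupling partners, other fibrous sheath genes, mitochondrial sheath genes and polyamine genes. Of their 56 entries 54 matched a symbol and 44 had a mean FPKM of 1 or more; 5 of these rose, 0 fell and 39 stayed within 2-fold, beside the 2.75% higher and 1.88% lower of all genes. The 10 paralogs of the 10 genes that matched included 5 passing the minimum, with 0 past 2-fold and a median of 0.06 (-0.17 on the TPM scale, -0.03 without a minimum and -0.03 at a median ratio of 1); Gykl1 and Odf3l1 were the most abundant. Oaz1, the antizyme of most other tissues, had an FPKM of only 2.79 in wild type and 1.04 in the library labelled Epc-dKO, far below Oaz3. Oaz1 was named after its values were seen, and it passed 2-fold, as lower, with a pseudocount of 0.1 or 0.5 or on the TPM scale.

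Genes of fibre partners and of the head-tail coupling apparatus had 0 of 9 past 2-fold and a median log2 ratio of 0.28. The most abundant were Spata6, needed for the connecting piece, at an FPKM of 118.8 and 145.5 (wild type first), and Pmfbp1, a head-tail coupling gene, with 83.5 and 142.9. These 9 genes and the 4 Odf genes had no called member in either direction. Of all genes passing the minimum, 2.75% were called higher and 1.88% lower, so this is close to the background.

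The other 16 fibrous sheath genes had a median log2 ratio of 0.35, with 3 that rose, 0 that fell and 12 above 0, beside the same 2.75% and 1.88% of all genes. Akap4, for the main sheath scaffold, rose from 85.0 to 192.7 FPKM, by 1.17 on the log2 scale. Txndc2, a sperm thioredoxin gene, rose by 1.21 on this scale, and Prkar2a, a regulatory subunit of protein kinase A that docks on AKAPs, rose from 1.41 to 7.22 (1.77, and up to 2.28 with a pseudocount of 0.1). The most abundant, Ldhc, for the sperm lactate dehydrogenase, had 466 and 391, and Gstm5, a glutathione transferase gene, had 220.0 and 235.5. Akap4 rose by more than Cabyr, which was itself higher (log2 ratio 0.35), and Ropn1l was lower (-0.46). Both were therefore lower relative to Akap4 in the library labelled Epc-dKO. This holds for any gene of the set described here, since the highest ratio among them, 0.69 for Odf1, was below that of Akap4. Akap3, on the same list, had 124.0 and 151.7 (log2 ratio 0.29) and was named after its values were seen. Relative to Akap3, Ropn1l was lower in the library labelled Epc-dKO, but Cabyr was not. Cabyr was 1.54 times as high as Akap4 in wild type and 0.872 times in the other library, and for Ropn1l the values were 1.56 and 0.50.

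Of 9 mitochondrial sheath genes 1 rose and 0 fell, beside the 2.75% higher and 1.88% lower of all genes. Their median was -0.00, on the other side of 0 (0.05 and 0.04) with a median ratio of 1 or the upper quartile. Spata18, a mitochondrial quality control gene, rose from an FPKM of 36.7 to 101.3 (1.44). Smcp, for the cysteine-rich capsule protein of sperm mitochondria, had 156.5 and 263.7 (0.75), the opposite side of 0 from Gk2. Of the 9 genes, 4 lay above 0 and 5 below it, the side of Gk2. Vdac2, a mitochondrial porin gene and with Smcp the most abundant of the list, had 125.2 and 130.2. Of the 5 polyamine genes passing the minimum, Adc rose and 0 fell, beside the same 2.75% and 1.88% of all genes. Their median was 0.24, but -0.31 on the TPM scale and -0.11 without a minimum, which add low genes. Odc1 and Adc were the most abundant.

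**Figure D4:**
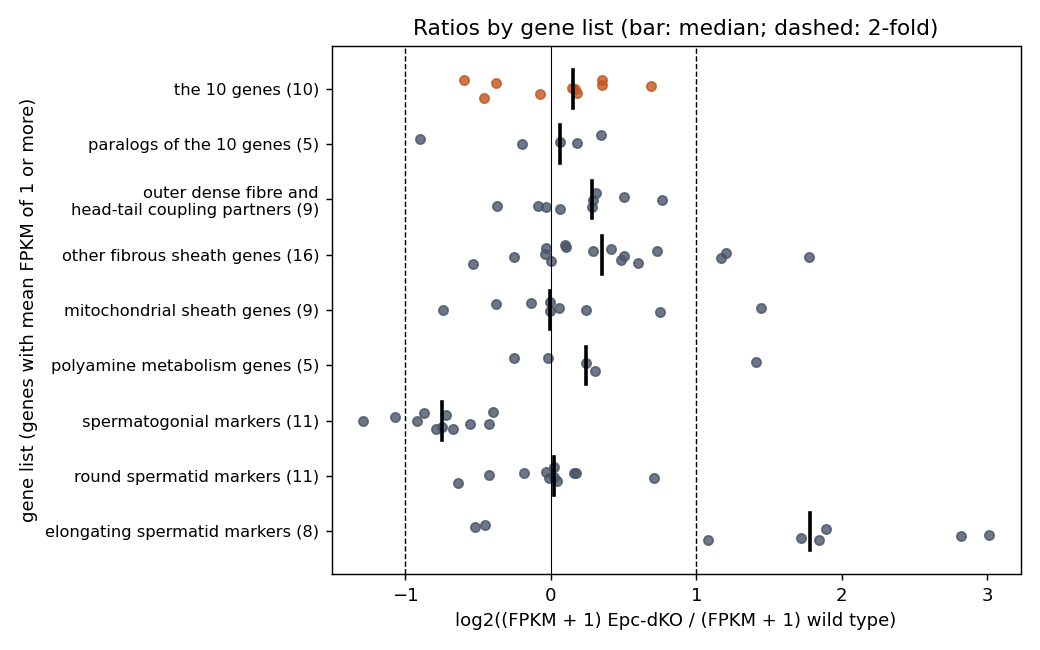
Log2 ratio of the library labelled Epc-dKO over the wild-type library (FPKM + 1) for the 10 genes, 5 related lists and 3 lists of germ cell markers, 1 point per gene with a mean FPKM of 1 or more; bars are medians and dashed lines 2-fold. The 10 genes centre on 0.15 with none past 2-fold, whereas 6 of 8 elongating spermatid markers lie above 2-fold.

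Markers of the stages before and after round spermatids were measured beside the 10 genes. Their counts stand beside the 2.75% of all genes at least 2-fold higher and the 1.88% at least 2-fold lower. Of 8 genes listed as markers of elongating spermatids, the stage after round spermatids, 6 rose and 0 fell. Their summed FPKM was 209 in wild type and 1037 in the library labelled Epc-dKO. Prm2, for protamine 2, and Tnp2, for a transition protein, were the most abundant, with log2 ratios of 3.01 and 1.89. Prm2 alone had 82.8 and 674.9. Prm3 and Hils1 stayed within 2-fold and lay below 0, at -0.45 and -0.52. Whether these transcripts came from elongating cells was not tested. Of 11 spermatogonial markers passing the minimum 2 fell, Dmrt1 and Crabp1, and all 11 lay below 0, with a summed FPKM over 13 markers of 42.6 and 19.3; Dmrt1 and Dazl were the most abundant. The 11 round spermatid markers had 0 past 2-fold and a median of 0.02, with Acrbp and Spata16 the most abundant, and the 12 spermatocyte markers passing the minimum had a median of -0.08, 1 that fell (Tex101), and Syce1 and Ccna1 as the most abundant. Leydig cell markers summed to 31.0 and 24.1. Of the 6 passing the minimum 1 fell, Insl3 (14.9 and 6.79), while 3 lay above 0 and 3 below. Crabp1, Tex101, Prm3, Hils1 and Insl3 were named after their values were seen. The part of these markers in the values of the 10 genes was not tested.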

How the data were processed

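The authors deposited 1 table of FPKM per gene, a column for each library, made with Cufflinks 2.2.1 on the mm9 genome, per the submitters' processing notes. Per the labels' protocols, the libraries were directional, from total RNA, and amplified by PCR. The aligner, annotation, strand setting and scaling between libraries were not given in the sources used here. The FPKM table holds no counts, so no interval or detection limit was computed. Of 23235 rows, 1 held library codes and was left out.

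The 2 libraries were grouped by genotype label. Log2 ratios used a pseudocount of 1, a minimum mean FPKM of 1 and a 2-fold rule, and no test was possible. The members and lists were chosen with earlier results of these data known. Named genes are the 10 members and, in each related list, those past 2-fold and the 2 most abundant; in each marker list, the 2 most abundant. For markers of somatic cells, only the listed zeros, Vwf and Insl3 are named. Akap3 was also named, after its values were seen. Gene pairs were chosen after their values were seen. Alternatives were pseudocounts of 0.1 and 0.5, 4 rescalings, other fold rules and other minimums. Transcripts and coding sequences came from GENCODE M21 (GRCm38), not mm9, and serve only for structure, identity and printed sequence. All 10 members matched. Coding sequences were aligned globally with Biopython 1.88. Python 3.11.15, NumPy 2.4.6, pandas 2.3.3 and Matplotlib 3.10.9 were used.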

Additional observations from a re-analysis of the deposited data

How the results depend on the processing

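Under pseudocounts of 0.1 and 0.5 and 4 rescalings (to a sum of 1000000, to a median ratio of 1, to the upper quartile, and to the sum without the 100 highest genes), the log2 ratios of the 10 genes kept their sign in 60 of 60 comparisons and moved by at most 0.05. Their median ran from 0.13 to 0.21 over these and the other alternatives. A 1.5-fold rule called 1 of the 10 higher (Odf1) and 1 lower (Odf3), beside 8.02% and 10.8% of all genes; 2-fold and 4-fold rules called none. Odf3 was not called at 1.5-fold in 2 of the 4 rescalings (-0.55 and -0.56). For the related lists, tried after seeing the data, the 5 genes that rose stayed past 2-fold in 30 of 30 such comparisons. Prkar2a ranged from 1.75 to 2.28. A 4-fold rule called none of the 5. With a minimum mean FPKM of 5, Prkar2a dropped out and the fibrous sheath list kept 2 genes that rose. At that minimum the median was 0.18 for the paralogs and 0.17 for the fibre and head-tail coupling partners. The list medians changed sign in 7 of 40 comparisons, in 3 lists. Paralogs, at 0.06, became -0.17 on the TPM scale and -0.03 at a median ratio of 1 and without a minimum. Polyamine genes, at 0.24, became -0.31 on the TPM scale and -0.11 without a minimum. Mitochondrial sheath genes, at -0.00, became 0.05 and 0.04 at a median ratio of 1 and the upper quartile. Low FPKM values are the least certain, since depth is unknown. No paired analysis was possible because there was only 1 library of each genotype.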
